A study of Mus musculus with 6 samples.

Results

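The genes described here make and handle coenzyme Q, and were taken by name: Coq2, Coq3, Coq4, Coq5, Coq6, Coq7, Coq9, Coq10a, Pdss1 and Pdss2. Every probe whose platform annotation gives 1 of these 10 symbols was used. That gave 15 probes for 8 of the 10 genes, out of 45281 probes on the array. The annotation used here names no probe for Pdss1 or Pdss2, so neither was analysed. The 8 genes measured were among 9978 genes tested.

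The RNA came from the tibialis anterior, a shin muscle rich in fast fibres, of male mice aged 3 months. A group of 3 wild-type arrays was compared with 3 arrays labelled PGC1b transgenic, meaning muscle meant to carry extra PGC-1β, a transcriptional coactivator encoded by Ppargc1b. Each sample was hybridised to a 1-colour Illumina Mouse WG-6 v2 array. Strain, the promoter that drives the transgene and whether each array is a separate animal are not given in the sources used here, so p-values cover only the spread between arrays, possibly a technical one.

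Coenzyme Q is a lipid of the inner mitochondrial membrane that carries electrons from complexes I and II and from several other dehydrogenases to complex III. Its long isoprenoid tail comes from the mevalonate pathway and its ring from tyrosine. Once tail and ring are joined, a complex of enzymes in the mitochondrial matrix hydroxylates, methylates and finishes the ring. PGC-1 coactivators are known to raise genes of mitochondrial respiration in muscle, partly through estrogen-related receptors (ERRs).

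The 6 arrays had 15338 to 17604 probes with a detection p-value under 0.05, and the 3 labelled transgenic had more (17525 to 17604) than the wild-type arrays (15338 to 15691). Ppargc1b itself went against the label: its single probe fell by 1.32 on the log2 scale (SE 0.21, limma adjusted p = 0.000734). Whether that probe matches mRNA made from the transgene was not tested, and the directions given here rest on the labels. All 10 muscle markers passed the filter on dim probes, with 3 lower and 1 higher, and their summed normalized signal was 219749 to 226829 in wild type and 195188 to 199955 in the other group. That sum includes Myh4, which fell by 3.91 (mean log2 signal 13.78 in wild type against 9.87). The other called falls, of Ckm and Tnnt3, were -0.29 and -0.33, and 6 of the 10 markers were not called. All 8 macrophage markers tested, of 10 listed, were higher, and their summed signal was 2002 to 2360 in wild type and 10790 to 18522 in the arrays labelled transgenic. Cd68, a macrophage marker, has no annotated probe here, and Ptprc did not pass the filter. Of 6 fibroblast markers 5 were higher (summed signal 11060 to 11810 and 15761 to 16982). The part of these other cells in the results below was not tested, and in whole muscle fewer cells of a type and less RNA per cell cannot be told apart.

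The question was how the genes of coenzyme Q synthesis differed between the genotypes. They did not move as a block. Coq6, which hydroxylates the ring, rose 3.61-fold, and Coq5, Coq4 and Coq9 rose by smaller amounts. Coq2, which joins ring and tail, Coq3, a methyltransferase, and Coq10a, a carrier of the finished lipid, fell. Coq7 did not pass the test. In all 4 of the 8 genes rose, where 28.1% of all genes tested rose, and 3 fell, where 28.2% of all genes fell. "Rose" and "fell" refer here to an adjusted p under 0.05 in limma, fitted over all 9978 genes with Benjamini-Hochberg adjustment, on background-corrected, quantile-normalized log2 signals. All 8 genes were above background on all 6 arrays, so none was tested only because it was high in 1 group. The median log2 change of the 8 genes was 0.29, against -0.03 for all genes tested. With 8 genes in a comparison where 56.3% of genes passed, these counts are a description and were not tested as a set.

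**Figure D1:**
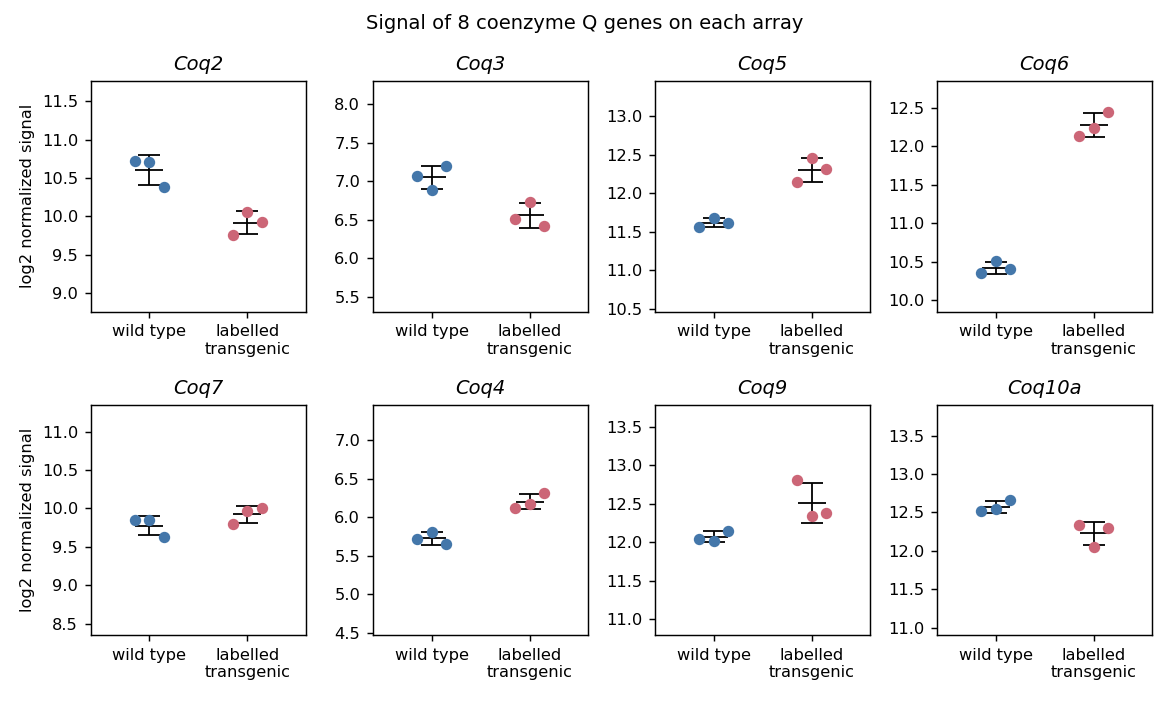
Log2 normalized signal (vertical axis, 3 log2 units in each panel) of the 8 measured coenzyme Q genes on each of the 3 wild-type arrays (blue) and the 3 arrays labelled transgenic (red), with the mean and SD of each group in black. The groups are separate in every panel except that of Coq7, and lie farthest apart for Coq6.

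The tail is made by an enzyme of Pdss1 and Pdss2 subunits, which were not measured, and is joined to the ring precursor 4-hydroxybenzoate by the product of Coq2, a membrane prenyltransferase. The brighter Coq2 probe gave unnormalized wild-type signals of 1757.3, 1655.1 and 1292.1 against 1052.6, 1198.8 and 991 with the transgenic label. Each of the latter lay below each wild-type value before any scaling. Normalization put the wild-type mean at 10.61 ± 0.20 and the other at 9.92 ± 0.15 on the log2 scale (SD, n = 3 each), a 1.61-fold fall (log2 change -0.69, SE 0.14, limma adjusted p = 0.00279). A dimmer Coq2 probe changed in the same direction, by -0.80, in the fit over all probes (limma adjusted p = 0.00252). Coq2 was thus lower by both of its probes, and 13.4% of all genes tested had an equal or lower log2 change. The bases before its start site (GRCm38.p6, RefSeq, minus strand, chr5:100674257-100674506) are shown as those of the member with the largest fall. Capitals would mark matches to the motifs searched below, of which this stretch holds none.
Coq2: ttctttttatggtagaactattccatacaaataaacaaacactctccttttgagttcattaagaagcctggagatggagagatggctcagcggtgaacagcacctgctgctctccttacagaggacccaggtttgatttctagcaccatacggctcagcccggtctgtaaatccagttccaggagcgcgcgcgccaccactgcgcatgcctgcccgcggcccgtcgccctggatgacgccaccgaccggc

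Ring modification held the largest change. Coq6 encodes a flavin-dependent monooxygenase that adds a hydroxyl group to the ring. Its brightest probe read 1352.5, 1433.4 and 1317 in wild type and rose to 4924.1, 5115.7 and 5306.3, so that every value of the second group was more than 3-fold above every value of the first. The log2 signal went from 10.42 ± 0.08 (SD, n = 3) to 12.27 ± 0.16 (SD, n = 3), a rise of 1.85 (SE 0.12, limma adjusted p = 6.26e-06). Only 3.51% of all genes tested had an equal or larger rise. The other 2 Coq6 probes rose by 1.86 and 1.72 in the fit over all probes (limma adjusted p = 2.25e-05 and 7.03e-06). The 3 probes, with unnormalized signals from 201.8 to 1433.4 in wild type, therefore gave nearly the same log2 change. The bases before the start site of Coq6 (GRCm38.p6, RefSeq, plus strand, chr12:84361718-84361967) are shown as those of the member with the largest rise, in lower case because they hold none of the motifs searched below.
Coq6: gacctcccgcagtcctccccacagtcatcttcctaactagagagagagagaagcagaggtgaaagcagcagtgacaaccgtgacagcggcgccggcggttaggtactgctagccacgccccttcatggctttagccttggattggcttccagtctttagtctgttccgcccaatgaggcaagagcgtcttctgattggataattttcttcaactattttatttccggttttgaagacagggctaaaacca

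The methyltransferases went opposite ways. Coq5 encodes the enzyme that places a methyl group on a ring carbon, and Coq3 the one that methylates ring hydroxyl groups. The brightest Coq5 probe read 3070, 3162.1 and 2984.6 in wild type, against 4957.8, 5865.7 and 4869.9. The groups were well apart, and the log2 signal rose 1.61-fold from 11.62 ± 0.06 (SD, n = 3) to 12.30 ± 0.16 (SD, n = 3), with an adjusted p of 0.00122 in limma. A second Coq5 probe rose by 0.72 and the dimmest by 1.30 (95% interval 1.01 to 1.59), above the 0.41 to 0.96 of the brightest in the same fit over probes. All 3 probes of Coq5 thus agree in direction and differ in size. Which part of the mRNA each probe matches was not analysed here.

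The call of Coq3 was lost in 1 of 19 alternatives, a different scaling of the arrays. Its brighter probe read 173.6, 153.2 and 178.7 in wild type, against 167.7, 181.7 and 138.9, and these overlap. Quantile normalization, which gives all arrays 1 distribution, separated the groups: the wild-type mean was 7.05 ± 0.15 and the other 6.55 ± 0.16 on the log2 scale (SD, n = 3 each), a change of -0.50 (limma adjusted p = 0.0113). With each array scaled to its median over all probes the change was -0.13 and no longer passed (limma adjusted p = 0.505). Under that scaling the median change of all genes moved by 0.23, to 0.19, and the share of calls that were higher went from 49.9% to 70.1%. Relative to the median of all genes the change of Coq3 was -0.46 in the first case and -0.33 in the second. With arrays scaled to the median of probes detected on all arrays Coq3 changed by -0.38 and passed (limma adjusted p = 0.0384). The dimmer Coq3 probe changed by -0.60 in the fit over probes. Its unnormalized values, 111.6, 142.6 and 129.2 in wild type against 122.7, 115.1 and 116.7, overlap too, so this fall also rests on the normalization.

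Coq7, which encodes a di-iron hydroxylase acting late on the ring, did not pass the test. Its probe read 947.6, 911.4 and 769.7 in wild type, against 1084.8, 1127 and 1043.1, higher throughout before scaling. After normalization the groups overlapped, and the log2 change was 0.15 (95% interval -0.12 to 0.42, limma adjusted p = 0.304). The interval leaves room for a small rise but not for one of the size seen in Coq6. Over the 19 alternatives the change of Coq7 lay between 0.03 and 0.28 and never passed.

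**Figure D2:**
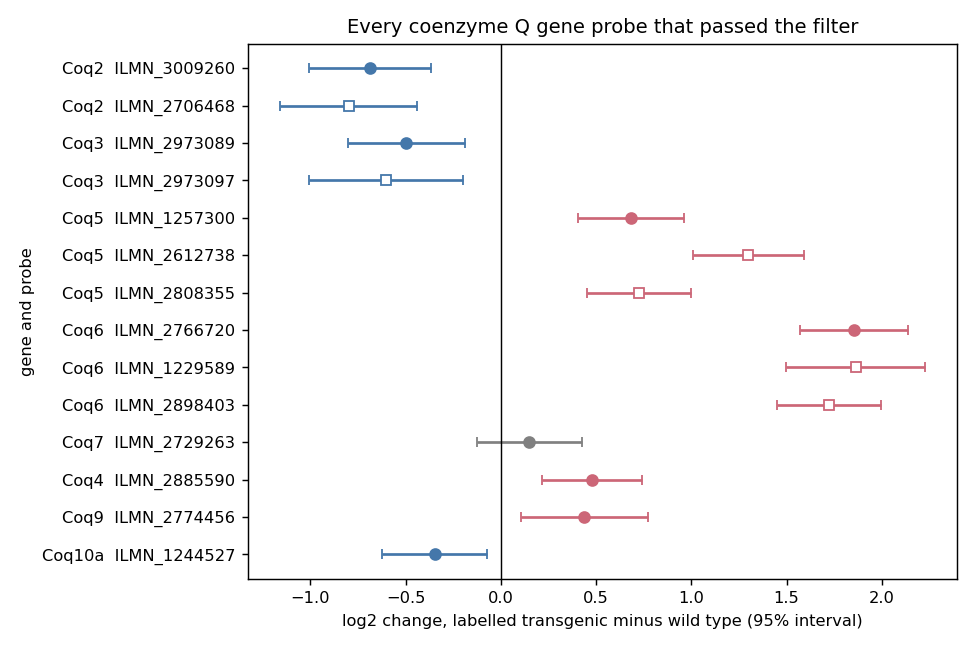
Log2 change, labelled transgenic minus wild type (horizontal axis, with 95% intervals from limma fitted over all probes), for the 14 coenzyme Q gene probes that passed the filter. Filled circles are the probes that stand for their gene and open squares the other probes. Red marks probes called higher, blue those called lower and grey the 1 not called. The 3 Coq6 probes lie between 1.72 and 1.86, and both probes of Coq2 and of Coq3 lie below 0.

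Partners of the ring enzymes rose. Coq9 encodes a lipid-binding protein that works with the Coq7 hydroxylase. Its probe read 4286.8, 4023.7 and 4402 in wild type, against 7596.4, 5490.1 and 5088.2, without overlap and with transgenic replicate 1 well above the other two. The log2 signal rose from 12.07 ± 0.07 (SD, n = 3) to 12.51 ± 0.26 (SD, n = 3), or 1.35-fold (limma adjusted p = 0.029). Without transgenic replicate 1 the change of Coq9 was 0.29 and did not pass (limma adjusted p = 0.0772), and it also missed the threshold without wild-type replicate 1 or 2 (0.0714 and 0.0786) and with arrays scaled to the median of probes detected on all arrays (change 0.20, limma adjusted p = 0.233). Coq4 encodes a protein of the synthesis complex that the other subunits need. Its brighter probe, dim on every array, read 99.6, 100.9 and 97 in wild type and 140.9, 140.8 and 132.6 in the other group. These values do not overlap, and the log2 signal rose from 5.72 ± 0.08 (SD, n = 3) to 6.20 ± 0.10 (SD, n = 3), with an adjusted p of 0.00566 in limma. Its size moved with the processing, from 0.22 without background correction to 0.85 with arrays scaled to the median of all probes. The second Coq4 probe was above background on 1 array and was not tested.

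Coq10a encodes a lipid-binding protein of the START family that is needed for coenzyme Q to work in respiration, as shown in yeast for its relative. Its probe read 5912, 5910 and 6373.6 in wild type, against 5595.5, 4494.5 and 4817.7. The second group was lower throughout, by 1.27-fold after normalization (log2 signal 12.57 ± 0.08 against 12.23 ± 0.15, SD, n = 3, limma adjusted p = 0.0324). This call is the least firm of the 7: the change of Coq10a did not pass when any 1 of the 3 wild-type arrays or transgenic replicate 2 was left out (limma adjusted p of 0.0519, 0.0666, 0.1 and 0.103). Its size grew to -0.60 with arrays scaled to the median of probes detected on all arrays.

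In 7 of the 8 genes the normalized values of the groups did not overlap, 4 upwards and 3 downwards. Of all genes tested 63.8% were separated in this way, 31.5% upwards and 32.3% downwards. For a single gene an exact two-sided permutation test of 3 arrays against 3 cannot go below p = 0.1, which was the value for each of these 7 genes, and for Coq7 it gave 0.3. Of the 14 probes in the fit over 17166 probes, 8 rose and 5 fell, where 25.5% of all probes rose and 27.9% fell. No gene had probes called in opposite directions.

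**Figure D3:**
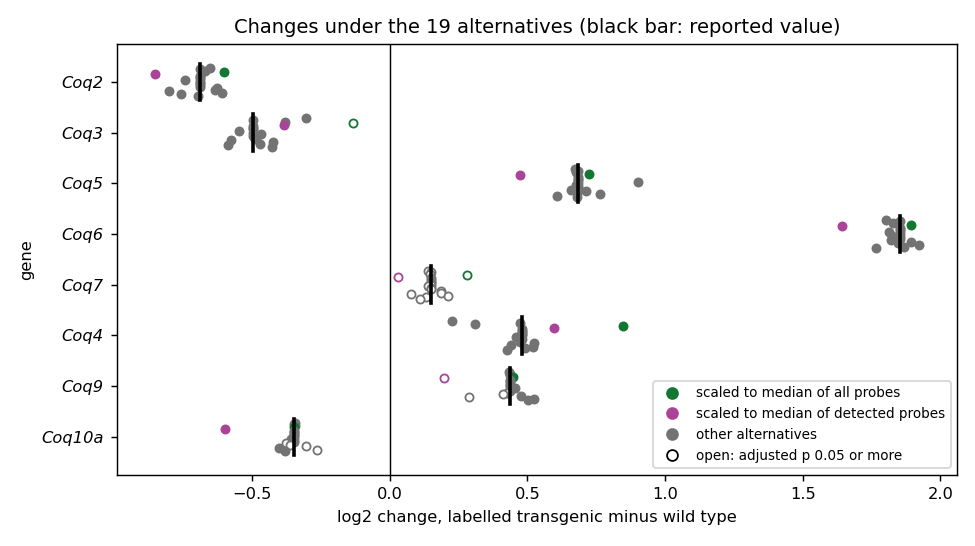
Log2 change, labelled transgenic minus wild type (horizontal axis), of each measured coenzyme Q gene as reported (black bar) and under 19 alternatives in processing or arrays included (points, open where the adjusted p was 0.05 or more). Coq2, Coq4, Coq5 and Coq6 passed under all 19, Coq3 under 18, Coq9 under 15, Coq10a under 14 and Coq7 under none. No change crosses 0.

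The start regions of the members were searched for motifs of factors tied to mitochondrial genes. RefSeq windows of 300 bases, 250 before the start and 50 from it on, were at hand for 9 of the 10 members, some with more than 1 start. Both strands were searched for the ERR response element TCAAGGTCA, its core AAGGTCA (which lies inside the full element), the NRF1 motif and the ETS motif CCGGAAG, the core bound by GABP. The full ERR element was in 0 of 9 members, where 0.466% of 27025 genes hold it. The ERR core was in 2 members (5.38% of all genes), the NRF1 motif in 1 (5.19%) and the ETS motif in 3 (9.93%). Those in measured members are printed here, each with up to 10 bases on either side and the match in capitals. They lie at chr12:84361977-84362003 (plus strand) for Coq6, chr4:21879843-21879872 (plus strand) for Coq3 and chr10:128370251-128370277 (minus strand) for Coq10a, in GRCm38.p6.
Coq6, ETS motif: gacgactgccCCGGAAGcactttccag
Coq3, NRF1 motif: gggcggctctGCGCAAGCGCggcagagagc
Coq10a, ERR core on the opposite strand: tctgagtctaTGACCTTatttgtgtaa
The ETS match of Coq6 begins 19 bases after the start. That of Coq3 begins at the start and that of Coq10a 230 bases before it. Coq3 and Coq10a have more than 1 window, and only 1 window of each holds the match. Coq6 rose, and Coq3 and Coq10a fell. A match of this kind is a stretch of letters, not evidence that a factor binds there.

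Of 9 helper genes of the pathway outside the 10 members 6 were tested. Of these 2 rose and 1 fell, where 28.1% and 28.2% of all genes did. Hpdl, whose product in human cells supplies the ring precursor, rose 6.01-fold. Its brighter probe read 97.3, 109.8 and 86.7 in wild type, above background on 2 arrays, against 346.4, 456 and 350.7 (log2 change 2.59, SE 0.23, limma adjusted p = 3e-05). A second Hpdl probe, above background on 1 wild-type array and on 3 labelled transgenic, rose by 1.42. It passed the filter only through the group where it was high, so it adds no separate support. Without background correction the change of Hpdl was 1.61, below the 1.80 of Coq6 in the same setting. The atypical kinase genes Coq8a and Coq8b, whose products keep the synthesis complex active, differed from each other. Coq8b read 82.4, 87.6 and 88.6 in wild type, against 170.9, 135 and 122.8, and rose by 1.05 (limma adjusted p = 0.000553). Its probe was above background on 2 of the wild-type arrays, and the change of Coq8b was 0.46 without background correction and 0.64 with an offset of 50, both past the threshold (limma adjusted p = 0.00131 and 0.000581). With only probes detected on all arrays kept, neither Hpdl nor Coq8b was tested. Coq8a, the form known to be abundant in muscle, had a change of 0.0015 (95% interval -0.26 to 0.26). The mitochondrial phosphatase gene Pptc7 fell by 0.36 (limma adjusted p = 0.0424), a call lost in 8 of 19 alternatives. Coq10b, the close relative of Coq10a, had a change of 0.31 and the lipid transfer gene Stard7 one of 0.34, and neither passed (limma adjusted p = 0.0771 and 0.0586). A second kept Coq10b probe changed by 0.09 in the fit over all probes. The ferredoxin genes Fdx1 and Fdx2 did not pass the filter, and Fdxr has no annotated probe here. Adck1 and Adck5, from the same kinase family as Coq8a and Coq8b, rose by 0.49 and 0.50, and Adck2 did not pass the filter.

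The isoprenoid supply was measured in part. Of 8 genes of the mevalonate trunk 4 were tested, with 2 lower, 0 higher and a median log2 change of -0.29. Of all genes tested 28.2% were lower and 28.1% higher. Fdps, which makes the farnesyl diphosphate from which the tail grows, read 850, 850.9 and 766.2 in wild type, against 697.9, 719.6 and 622.4, and fell by 0.50 (limma adjusted p = 0.00342). Mvd, the decarboxylase of the trunk, fell by 0.43 (limma adjusted p = 0.0478), a call lost in 14 of 19 alternatives. Hmgcs1 and Acat2 have no annotated probe here. Among 4 tested genes for enzymes that draw on farnesyl diphosphate for other products, Nus1, of dolichol synthesis, rose by 0.82 (limma adjusted p = 0.000569) and the other 3 did not pass.

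Among the lists, that of enzymes that feed electrons into coenzyme Q, which leaves out complex I, showed the widest spread. Of 10 tested, out of 12 listed, 4 rose and 5 fell, where 28.1% and 28.2% of all genes did. The largest changes were falls: Gpd2, the glycerol phosphate dehydrogenase of the inner membrane, fell 4.64-fold (log2 change -2.21, limma adjusted p = 6.41e-06), from signals of 1020.1, 913.6 and 1151.3 to 299.4, 293.9 and 305.2. Sqor, which oxidises sulfide, had a change of -1.42, the proline dehydrogenase gene Prodh one of -1.39 and the quinone reductase gene Nqo1 one of -1.37 (limma adjusted p = 4.46e-05, 2.34e-05 and 3.53e-05). The genes of this list named next lie outside the rule for named genes and were chosen after their values were seen, to complete the picture. Etfdh, which passes electrons from fatty acid oxidation to coenzyme Q, rose by 1.06, and Aifm2, a reductase that keeps coenzyme Q reduced outside mitochondria, by 0.88. These are values of the brightest probes. In the fit over all probes, other kept Etfdh probes changed by 0.96, 0.46 and -0.06, the last not called. The probes at 0.96 and 0.46 were above background on 0 wild-type arrays and on 3 labelled transgenic. They were thus tested only because they were high in that group, and add no separate support. Other kept Aifm2 probes changed by 0.40, 0.36 and 0.20, and none of these was called. The probe at 0.20 was likewise above background on 0 wild-type arrays. Sdhb and Sdhd, subunit genes of complex II, rose by 0.38 and 0.59, calls lost in 6 and 5 of 19 alternatives. Sdhc, another subunit gene, went the other way, by -0.22, and did not pass (limma adjusted p = 0.192). With arrays scaled to the median of probes detected on all arrays Sdhc changed by -0.50 and passed (limma adjusted p = 0.0148). The subunit gene Sdha did not pass the filter. Other kept Sdhb probes changed by 0.46 and 0.006, the latter not called. Dhodh, of pyrimidine synthesis, fell by 0.76. Complex III takes electrons from coenzyme Q. Its 9 tested genes, out of 12 listed, held 4 rises and 0 falls, against 28.1% and 28.2% of all genes. The rises were Cyc1 by 0.999, Uqcrc2 by 0.56, Uqcrh by 0.50 and Bcs1l by 0.31, the last lost in 8 of 19 alternatives. With arrays scaled to the median of probes detected on all arrays, Uqcrc2 (0.15) and Uqcrh (0.07) did not pass and Uqcr10 turned to a fall of 0.37.

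**Figure D4:**
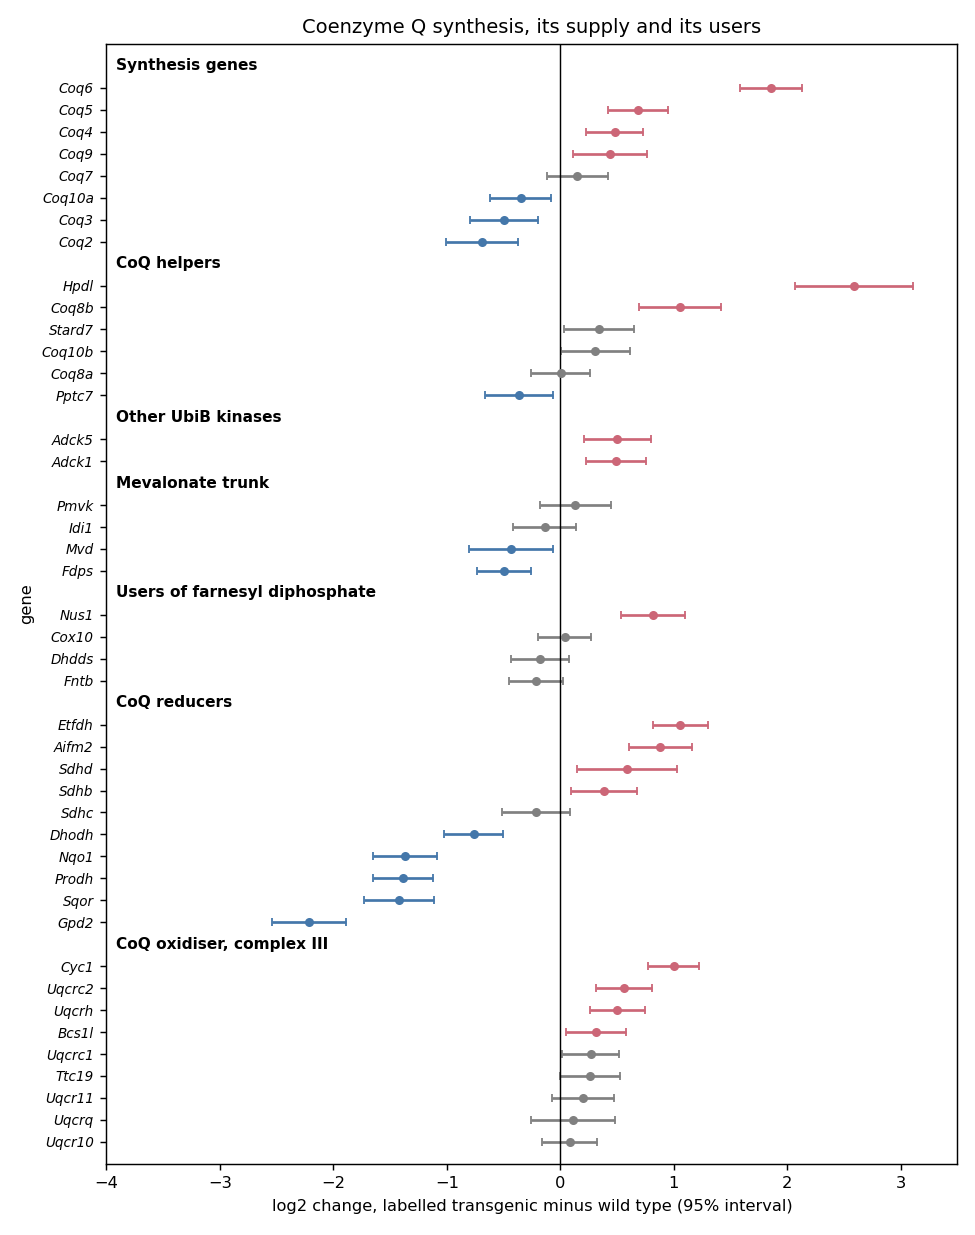
Log2 change, labelled transgenic minus wild type (horizontal axis, with 95% intervals from limma), of the 8 measured synthesis genes and of 35 tested genes in 6 related groups (vertical axis). Red marks genes that rose, blue genes that fell and grey genes that did not pass. Hpdl and Coq6 have the largest rises shown, and Gpd2 the largest fall.

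Over these related groups 13 of 35 tested genes rose and 8 fell, out of 52 listed, where 28.1% and 28.2% of all genes did. Tat, the tyrosine aminotransferase gene, which acts on the ring's amino acid source, did not pass the filter.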

How the data were processed

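Total RNA (300 ng, per the labels' protocols) was amplified with an oligo-dT primer and hybridised to 6 arrays. The submitters' processing notes name GenomeStudio. Per the file headers, the authors deposited an unnormalized intensity and a detection p-value for each probe. A second deposited table holds intensity values with negative entries and nearly the same quantiles on every array, judged from the values, and served as an alternative.

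Intensities were corrected by normexp with parameters inferred from the detection p-values (offset 16), quantile normalized and taken to log2 (neqc, limma 3.58.1, R 4.3.3). Probes with detection p under 0.05 on at least 3 arrays were kept (17166 of 45281), and the brightest kept probe stood for its gene. Genotypes were compared with lmFit and eBayes, two-sided, Benjamini-Hochberg adjusted, threshold 0.05. Symbols came from the platform annotation (34885 probes with 1 symbol, 18 with several, 10378 with none), and 34807 were matched to RefSeq, which changed 0. The number of arrays limits the precision.

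Members and lists were chosen with earlier results of these data known. Named were all members, Ppargc1b, tested helpers and, in each other list, up to 4 called genes by size of change. The fit was tested on simulated data. Alternatives varied background, offset, scaling, filter, probe summary, variance model, weights, replicate block, table and arrays.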

Additional observations from a re-analysis of the deposited data

How the results depend on the processing

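All 8 members kept their direction under all 19 alternatives. The counts of members stayed between 3 and 4 higher and between 2 and 3 lower, also when every probe of a member had to pass (4 and 3), and between 6 and 8 members had groups that did not overlap. The call of Coq3 was lost in 1 of these alternatives, that of Coq9 in 4 and that of Coq10a in 5. With arrays scaled to the median of all probes Coq3 had a change of -0.13. With arrays scaled to the median of probes detected on all arrays Coq9 had 0.20 and the median of the members was 0.11. Under that scaling 8 related genes rose and 10 fell, where 13 rose and 8 fell in the main comparison. Without background correction the median of the members was 0.18. The cause was not tested. Leaving out 1 array at a time gave 0.29 to 0.52 for Coq9 and -0.40 to -0.26 for Coq10a, and most of the lost calls of both came from these fits. The replicate numbers share no stated litter or batch. Deviations of same-numbered arrays correlated at -0.05, 0.03 and -0.0022, and those of differently numbered arrays between -0.05 and 0.05. A correlation over all genes cannot show whether arrays share a litter or batch, so pairing remains unknown. With the replicate block 5337 genes were called where 5613 were without it, and Coq10a, at -0.35, missed the threshold (limma adjusted p = 0.0516). The count of all genes called ranged from 4868 to 5737. No block for the BeadChip could be run, since neither labels nor files give it. Of the 8 measured members Coq4 read closest to background.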

Other observations

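Probes of a related gene disagreed in size. Dhdds, of dolichol synthesis, had 3 probes above the filter: the brightest after normalization had a change of -0.18, another one of -0.23, and the remaining one, reading 144.8, 119 and 137.2 in wild type against 109.2, 93.3 and 84.9, one of -1.30 (limma adjusted p = 0.000186 in the fit over all probes). This gene was picked after its values were seen.

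The Coq8a probe read 239.1, 226.9 and 199.3 in wild type and 295.1, 274.1 and 234.6 in the other group, which overlap, and its change after quantile normalization was 0.0015, with 0.30 as the highest of 19 alternatives. The brighter kept Coq10b probe read 447.4, 479.3 and 493.3 against 630.2, 669.8 and 672.5, without overlap, and its change was 0.31 after normalization. The other kept Coq10b probe read 374.7, 414.4 and 413.1 against 500.8, 436.5 and 552.3. Its change was 0.09 and did not pass (limma adjusted p = 0.681 in the fit over all probes). These genes, too, were picked after their values were seen.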
